A study of Rattus norvegicus with 10 samples.

Results

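The antioxidant and glutathione enzymes of the fetal rat heart were followed at the level of their mRNA. Members were taken from the deposited expression table by symbol: all genes whose symbol starts with Gpx, Prdx, Gst, Txnrd, Glrx or Nqo, together with Sod1, Sod2, Sod3, Cat, Hmox1, Hmox2, Gclc, Gclm, Gsr, Srxn1, Txn1, Txn2, Nfe2l2 and Keap1. Of 18025 genes listed, 59 had such a symbol, and 53 of these reached a mean of 0.1 FPKM over the 10 libraries. The other 6 were Gpx2, Gsta2, Gsta3, Gsta5, Gstm3l and Gstm6l, which held at most 4 reads in any library. FPKM is the number of reads on a gene divided by the length of the gene and by the size of the library, so levels can be set beside each other between genes.

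Hearts were taken from wild-type Sprague-Dawley fetuses at embryonic day 19.5. The 5 control (CON) libraries came from dams injected with citric acid buffer, and the 5 hyperglycemia (HG) libraries from dams injected with streptozotocin in that buffer, a drug that destroys insulin-producing beta cells. The study's methods place the injections after mating, while its text elsewhere places the hyperglycemia before pregnancy, so that the time of onset is uncertain. The labels and most of the study's text give heart tissue, but a legend on the same data speaks of isolated cardiomyocytes, and the methods speak of RNA pooled from the samples, although the 10 columns differ. What 1 library stands for is therefore uncertain. The labels do not say whether hearts within a group came from separate litters, nor the sex of the fetuses. The p-values therefore measure only the spread between these libraries.

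Aerobic cells make superoxide as a by-product of respiration. Superoxide dismutases turn it into hydrogen peroxide, which catalase, glutathione peroxidases and peroxiredoxins remove. Peroxidases are recharged by glutathione or by thioredoxin, and both are in turn reduced at the expense of NADPH. Glutathione transferases couple glutathione to reactive lipids and foreign compounds, and the transcription factor NRF2 (Nfe2l2), which KEAP1 holds back in unstressed cells, drives many of these genes. Mitochondria, which fill much of the volume of a cardiomyocyte, carry their own set of these enzymes.

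The libraries held between 16672876 and 19109844 reads on genes, recovered from the step between FPKM values. Of the cardiomyocyte markers, 9 of 10 were lower in HG (summed level 20756 to 21640.5 FPKM in CON and 17150.5 to 20214 in HG), and the natriuretic peptide gene Nppa was higher. Red cell precursor markers summed to 64.6 to 116 FPKM in CON and 43.1 to 61.6 in HG, with 5 of 10 lower and none higher, and hemoglobin genes held 2.27 to 4.21% of all FPKM in CON and 1.86 to 2.56% in HG. Hepatocyte markers summed to 3.15 to 84.8 FPKM in CON and 1.33 to 2.60 in HG, with every CON library above every HG library and 5 of 7 markers lower in HG. The CON3 library held the 84.8 FPKM, and the other CON libraries at most 8.46. Smooth muscle and pericyte markers summed higher in every HG library (976 to 1228 FPKM) than in every CON library (762 to 885). Of these 6 markers, 3 were called higher and 1 lower. Epicardial markers also summed higher in every HG library (37.7 to 44.2 against 31.3 to 37.0 FPKM), with 2 of 6 called higher and none lower. Endothelial (266 to 299.95 FPKM), fibroblast (1518 to 1976) and macrophage (38.6 to 59.1) sums overlapped between the groups, while lung and thymus markers summed to at most 0.132 FPKM. Among fibroblast markers 4 of 7 were called lower and 1 higher. Endothelial markers had 2 of 7 called higher and none lower, and macrophage markers 3 of 8 higher and 1 lower. No marker in the table was at 0 in every library. In bulk tissue, fewer cells of a type and less RNA per cell cannot be told apart.

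Antioxidant genes moved in both directions between the groups, with modest sizes. With limma on log2(FPKM + 0.1), 16 of the 53 members were higher in HG and 13 lower at an adjusted p under 0.05 (Benjamini-Hochberg over all 14542 genes tested), while 24 did not pass. Over all genes tested, 28.4% were called higher and 11.8% lower, 40.1% in all. The share of members called higher was 30.2%, close to this background, and the share called lower was 24.5%. The median log2 fold change was -0.07 over the members and 0.09 over all genes. The study's fold-change threshold, an absolute log2 fold change above 1 beside the adjusted p, was passed by 1.94% of all genes and by 0 members with limma, also with voom on the recovered reads, although 31 members had an unadjusted p under 0.05. Because 0.1 is added to each value, the fold change of a gene near that level comes out too small.

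The scaling of the libraries set part of this balance. After division of each library by a median-of-ratios factor, 10 members were higher (15.7% of all genes) and 20 lower (17.5% of all genes), and after quantile normalization 13 were higher (18% of all genes) and 16 lower (15.9% of all genes). No called member changed direction under any of the 21 alternatives, and 20 of the 29 calls held in all of them. In 8 members every HG library lay above every CON library, and in another 8 every HG library lay below, against 19.3% and 8.12% of all genes, 27.4% together.

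Summed over the 53 members, the level was 3272 ± 141 FPKM in CON and 3270.0 ± 75.6 FPKM in HG (mean ± SD over 5 libraries a group). The sums of the libraries overlapped, at 3089 to 3445 in CON and 3187 to 3387 in HG. The most abundant members in CON were the peroxiredoxin gene Prdx2 (461 FPKM), the thioredoxin gene Txn1 (373 FPKM) and the glutathione peroxidase gene Gpx1 (334 FPKM). The lowest members past the filter, Gstm6 and Gsta1, held 0 to 7 and 1 to 13 reads in a library. Among the CON libraries, 43 members had a coefficient of variation under 15%.

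**Figure D1:**
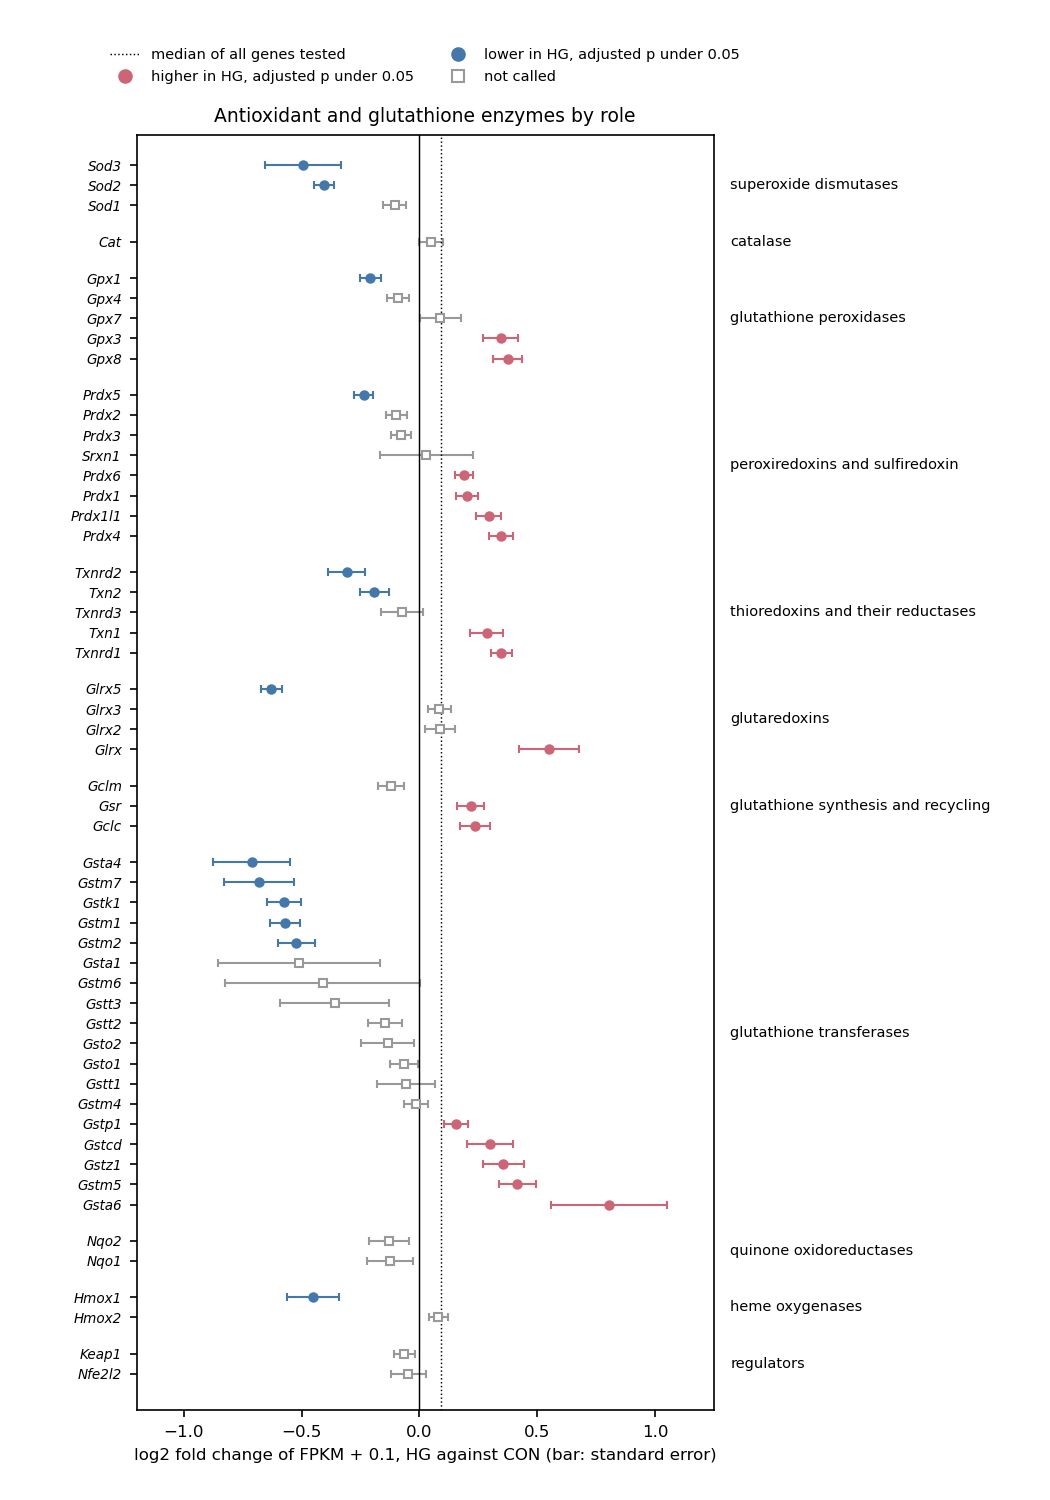
Log2 fold change (HG against CON, FPKM + 0.1) of the 53 members with its standard error, ordered by role, where filled circles are genes with an adjusted p under 0.05. Called genes of both directions appear in 5 of the 11 roles, and all values lie between -0.71 (Gsta4) and 0.80 (Gsta6), around a median of 0.09 for all genes tested (dotted line).

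Sod2, Prdx3, Prdx5, Txn2, Txnrd2, Glrx2, Glrx5 and Gstk1 encode proteins that work largely in mitochondria, although PRDX5 and GSTK1 are also found in peroxisomes. Of these 8 genes, 6 were lower in HG and none was higher, with a median log2 fold change of -0.27. This short list was chosen by hand. Over all genes tested, 11.8% were lower and 28.4% higher, with a median of 0.09. Among the 20 members that the deposited GO terms place in the mitochondrion, a wider set that also holds genes such as Sod1, Prdx6 and Txnrd1, 6 were higher and 8 lower, with a median of -0.08. Of the 45 members outside the short list, 16 were higher and 7 lower, with a median of -0.05. Among the 1209 other tested genes that the deposited GO terms place in the mitochondrion, 368 were lower and 223 higher, with a median of -0.04. The cardiomyocyte marker sum moved with these genes, and its part in them was not tested.

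Sod2 (NCBI Gene 24787), the manganese superoxide dismutase of the mitochondrial matrix, was at 80.6, 76.8, 80.6, 77.0 and 76.2 FPKM in CON and at 63.5, 60.4, 59.3, 58.7 and 54.1 FPKM in HG. Every HG library lay below every CON library, with little spread inside either group (log2 fold change -0.40, standard error (SE) 0.0422, adjusted p = 2.44e-05, limma). Sod1 (24786), the copper-zinc enzyme of the cytosol, was at 231, 266, 266, 243 and 230.1 FPKM in CON and 220.3, 232, 237, 226 and 232 FPKM in HG. The groups overlapped and the difference did not pass the test (log2 fold change -0.11, SE 0.0478, adjusted p = 0.0993). With median-of-ratios factors Sod1 was called lower (adjusted p = 0.00803), but not after quantile normalization (adjusted p = 0.667). Sod3 (25352), the secreted enzyme of the extracellular matrix, had 3.19, 3.61, 2.49, 1.87 and 3.59 FPKM in CON and 2.05, 2.17, 1.96, 1.70 and 2.18 in HG. The library CON4 lay within the HG range, and the decrease (log2 fold change -0.49, SE 0.162, adjusted p = 0.0285) rested on 52 to 114 reads per library. It lost its call without CON replicate 1, 2 or 5 or HG replicate 3 or 4, with adjusted p between 0.0548 and 0.0691.

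Glrx5 (362776), a mitochondrial glutaredoxin that hands on iron-sulfur clusters and is needed for heme synthesis, had the smallest adjusted p of all members. Its level was 59.4, 55.1, 53.4, 56.1 and 51.5 FPKM in CON and 35.8, 37.7, 34.5, 35.7 and 34.3 FPKM in HG. The groups stood far apart (log2 fold change -0.63, SE 0.0433, adjusted p = 1.39e-06). Red cell precursor markers, whose sum was higher in every CON library (64.6 to 116 FPKM) than in every HG library (43.1 to 61.6), moved with it, and their part in the result was not tested. Glrx (64045), the cytosolic glutaredoxin that removes glutathione from oxidized protein cysteines, moved the other way. It was at 4.72, 6.23, 5.02, 3.98 and 3.80 FPKM in CON and at 5.79, 8.01, 6.99, 7.52 and 6.36 FPKM in HG, where CON2 lay within the HG range (log2 fold change 0.55, SE 0.129, adjusted p = 0.00510). Glrx2 and Glrx3 did not pass the test, with log2 fold changes of 0.09 and 0.08, and both were within 0.01 of 0 with median-of-ratios factors.

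In the thioredoxin system the cytosolic and mitochondrial arms parted. Txn1 (116484), the cytosolic thioredoxin, was at 350.4, 438, 381, 352 and 344 FPKM in CON and at 448, 435, 415, 489 and 482 FPKM in HG. CON2 lay inside the HG range, and the other CON libraries below it (log2 fold change 0.29, SE 0.0685, adjusted p = 0.00584). Txnrd1 (58819), the selenium-containing reductase that recharges it, was at 29.6, 28.9, 28.0, 28.1 and 27.3 FPKM in CON and at 37.2, 37.5, 35.5, 37.8 and 32.8 FPKM in HG. Here the groups did not overlap (log2 fold change 0.35, SE 0.0447, adjusted p = 9.98e-05). The mitochondrial partners were lower, Txn2 (79462) between 132 and 164 FPKM in CON and 120.3 and 144 in HG (adjusted p = 0.0281, log2 fold change -0.19), and Txnrd2 (50551) between 16.8 and 19.1 FPKM in CON and 12.7 and 17.6 in HG (adjusted p = 0.00794, log2 fold change -0.31). The Txn2 call was lost in 7 of 21 alternatives, with an adjusted p of at most 0.0688. Txnrd3, a reductase with a glutaredoxin domain, did not pass (log2 fold change -0.07).

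**Figure D2:**
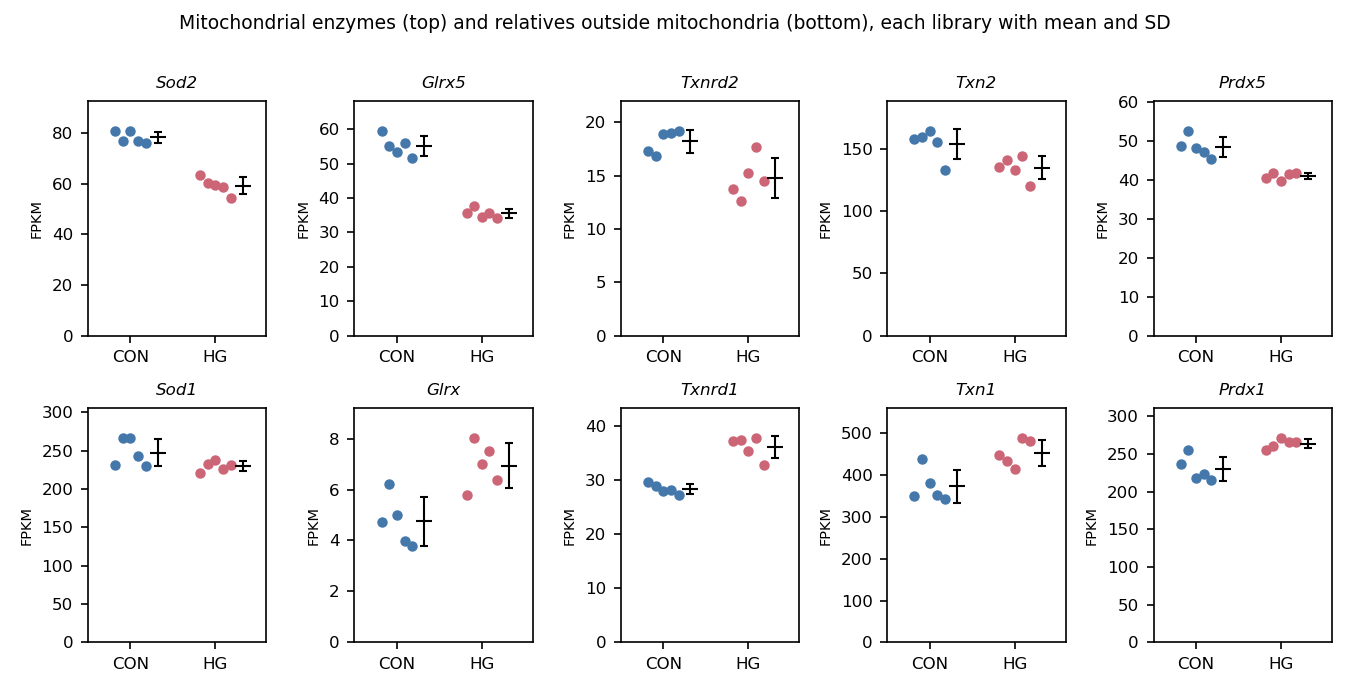
FPKM of 5 genes for mitochondrial enzymes (top row) and of 5 relatives that work mostly outside mitochondria (bottom row) in each of the 5 CON and 5 HG libraries, with mean and SD. Sod2, Glrx5 and Prdx5 show HG libraries below all CON libraries, whereas Txnrd1 and Prdx1 show them above. The groups overlap in Txnrd2, Txn2, Sod1, Glrx and Txn1.

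Ratios of a pair of genes within a library do not change when the whole library is divided by a factor, although quantile normalization can change them. They were formed after the values had been seen. Txnrd2 over Txnrd1 was 0.644 ± 0.0565 in CON and 0.409 ± 0.0536 in HG (mean ± SD over 5 libraries a group). Txn2 over Txn1 went from 0.414 ± 0.0374 to 0.298 ± 0.0293, Sod2 over Sod1 from 0.318 ± 0.0237 to 0.258 ± 0.0198, and Prdx5 over Prdx1 from 0.211 ± 0.00622 to 0.156 ± 0.00512. For Glrx5 over Glrx3 the values were 0.941 ± 0.0142 and 0.575 ± 0.0518. In each of these 5 ratios all HG libraries lay below all CON libraries, most narrowly for Sod2 over Sod1, where the highest HG value was 0.2881 and the lowest CON value 0.2883. Since the genes were picked for their directions, the separation is a description and not a test.

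**Figure D3:**
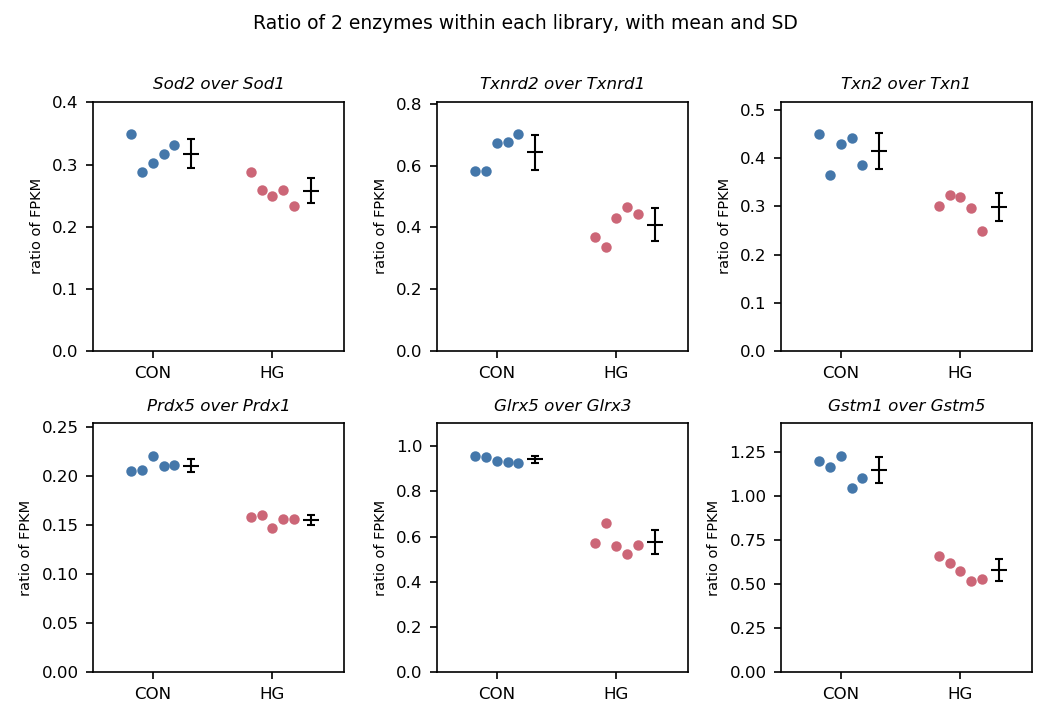
Ratio of the FPKM of 2 genes within each CON and HG library, with mean and SD. In each panel all 5 HG libraries lie below all 5 CON libraries, for example Gstm1 over Gstm5 with means of 1.15 in CON and 0.581 in HG.

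Peroxiredoxins, thiol peroxidases that draw on thioredoxin, gave 4 genes higher and 1 lower of 8 counted with sulfiredoxin. The shares over all genes tested were 28.4% higher and 11.8% lower. Prdx2 (29338), abundant in red cells as well as in other tissues, was at 494, 475, 473, 429 and 435 FPKM in CON and at 415, 451, 432, 441 and 415 in HG. The groups overlapped, and the difference did not pass (log2 fold change -0.10, SE 0.0457, adjusted p = 0.111), but with median-of-ratios factors it did (adjusted p = 0.0138). After quantile normalization Prdx2 was not called (adjusted p = 0.700). Prdx4 (85274), the peroxiredoxin of the endoplasmic reticulum, ranged from 39.8 to 45.2 FPKM in CON and from 48.8 to 57.7 in HG (adjusted p = 0.000256, log2 fold change 0.35). The cytosolic Prdx1 (117254) ranged from 215 to 254.6 FPKM in CON and from 255.4 to 271 in HG, and Prdx6 (94167), which uses glutathione rather than thioredoxin, from 173 to 198 and from 205 to 224. Neither overlapped between groups, but both calls were lost with median-of-ratios factors (adjusted p = 0.0845 and 0.106). Both held after quantile normalization (adjusted p = 0.000441 and 0.000330). Prdx1l1 (100363379), also called higher with a log2 fold change of 0.29, is named as a relative of Prdx1, so that reads can be shared between the pair and its value is uncertain. Mitochondrial Prdx5 (113898) was lower, at 45.4 to 52.5 FPKM in CON and 39.8 to 41.7 in HG (adjusted p = 0.000676, log2 fold change -0.24). Mitochondrial Prdx3 (adjusted p = 0.166, log2 fold change -0.08) and sulfiredoxin, Srxn1, which repairs overoxidized peroxiredoxins and held only 20 to 46 reads in a library, did not pass. Prdx3 was called lower with median-of-ratios factors (adjusted p = 0.0159) and without CON replicate 5 (adjusted p = 0.0451). It was not called after quantile normalization (adjusted p = 0.339).

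Catalase (Cat, 24248), the peroxisomal enzyme that splits hydrogen peroxide, was at 65.8, 71.4, 65.1, 60.1 and 60.8 FPKM in CON and at 62.7, 65.9, 66.8, 71.6 and 66.8 in HG. No difference passed the test (log2 fold change 0.05, SE 0.0509, adjusted p = 0.489), and the sign turned with median-of-ratios factors (-0.04). Glutathione peroxidases went both ways. Gpx1 (24404), the abundant cytosolic and mitochondrial selenoenzyme, was at 353, 344, 341, 318 and 315 FPKM in CON and at 286, 306, 274, 301 and 279 in HG. All HG libraries lay below all CON libraries (log2 fold change -0.21, SE 0.0447, adjusted p = 0.00305). Gpx4 (29328), which reduces lipid peroxides in membranes, was at 133, 121, 132, 134 and 126 FPKM in CON and 121, 127, 120.4, 128 and 109.7 in HG. It overlapped and was not called (log2 fold change -0.09, SE 0.0467, adjusted p = 0.138), while with median-of-ratios factors it was (adjusted p = 0.0211). After quantile normalization Gpx4 was not called (adjusted p = 0.119). The secreted Gpx3 (64317) was higher, at 69.6 to 91.6 FPKM in CON and 87.2 to 111 in HG (adjusted p = 0.00345, log2 fold change 0.34). Gpx8 (294744), a membrane protein of the endoplasmic reticulum, was higher without overlap, at 22.7 to 26.5 FPKM in CON and 29.6 to 36.4 in HG (adjusted p = 0.000595, log2 fold change 0.37), and its relative Gpx7 did not pass (0.09).

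Glutathione is made in 2 steps, of which glutamate-cysteine ligase catalyses the first, and glutathione reductase (Gsr) returns its oxidized form. Gclc (25283), the catalytic subunit of the ligase, was at 7.36, 7.204, 6.88, 6.82 and 7.82 FPKM in CON and at 8.24, 7.84, 9.08, 9.39 and 8.08 in HG. The groups touched without overlap (log2 fold change 0.24, SE 0.0637, adjusted p = 0.0111). Gclm (29739), its modifier subunit, was at 22.3, 20.8, 22.6, 21.4 and 21.9 FPKM in CON and at 20.5, 21.0, 19.2, 21.9 and 17.8 in HG. It did not pass (log2 fold change -0.12, SE 0.0545, adjusted p = 0.0992). Gclm over Gclc within a library was 3.03 ± 0.195 in CON and 2.36 ± 0.223 in HG (mean ± SD over 5 libraries a group), with no overlap. Gsr (116686) was at 16.6, 18.4, 16.5, 17.0 and 16.6 FPKM in CON and 18.8, 20.3, 17.6, 21.1 and 21.5 in HG, higher with an overlap of CON2 and HG3 (log2 fold change 0.22, SE 0.0583, adjusted p = 0.0107). With median-of-ratios factors the adjusted p was 0.105 for Gclc, 0.116 for Gsr and 0.0211 for Gclm. After quantile normalization it was 0.113 for Gclc, 0.0940 for Gsr and 0.0253 for Gclm. On both scales the modifier subunit was called lower and the other 2 genes were not called.

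Glutathione transferases made up 18 of the 53 members, of which 5 were lower, 5 higher and 8 not called. Over all genes tested, 11.8% were called lower and 28.4% higher, so the count of higher transferases is near this background. Gsta4 and Gstm7 had the largest decreases of all called members. Gsta4 (300850), an alpha-class enzyme active on the lipid peroxidation product 4-hydroxynonenal, was at 46.9, 50.3, 37.5, 32.4 and 42.3 FPKM in CON and 18.1, 30.5, 33.8, 21.4 and 25.5 in HG. It varied more between libraries than most members, and CON4 lay below HG3 (log2 fold change -0.71, SE 0.163, adjusted p = 0.00448). Gsta6 (501110) of the same class went up from low values, at 1.06, 1.52, 0.564, 0.976 and 0.683 FPKM in CON and 1.08, 1.66, 1.90, 1.53 and 2.41 in HG. The groups overlapped, with 28 to 113 reads in a library (log2 fold change 0.80, SE 0.245, adjusted p = 0.0205), and without HG replicate 5 the adjusted p was 0.0521. Gstk1 (297029), the kappa-class enzyme, was at 13.7, 16.6, 16.9, 16.2 and 18.8 FPKM in CON and 10.4, 10.97, 11.9, 10.9 and 10.6 in HG, without overlap (log2 fold change -0.57, SE 0.0738, adjusted p = 9.88e-05).

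The mu class lies in a row on chromosome 2, where RefSeq (GRCr8) lists Gstm5, Gstm6l, Gstm7, Gstm6, Gstm3l, Gstm2, Gstm1 and Gstm4 in this order with 1 other protein-coding gene among them, between Gstm6 and Gstm3l. The genes of this row did not all move alike, although the adjacent Gstm2 and Gstm1 both fell. Gstm1 (24423) was at 34.0, 36.8, 32.9, 28.7 and 32.9 FPKM in CON and 22.3, 20.5, 24.3, 21.4 and 22.4 in HG (log2 fold change -0.57, SE 0.0638, adjusted p = 3.96e-05). Gstm2 (24424) was at 41.2, 36.5, 33.0, 33.6 and 39.6 FPKM in CON and 27.0, 25.2, 29.1, 24.0 and 22.6 in HG (log2 fold change -0.52, SE 0.0774, adjusted p = 0.000274). In both genes the HG libraries lay entirely below. Gstm7 (81869) was at 13.7, 11.5, 8.48, 11.3 and 11.8 FPKM in CON and 4.76, 7.92, 7.67, 7.63 and 7.49 in HG, also without overlap and with HG1 lower than the rest (log2 fold change -0.68, SE 0.147, adjusted p = 0.00316). Gstm5 (64352), at the near end of the row, rose instead. It was at 28.3, 31.5, 26.7, 27.5 and 29.8 FPKM in CON and at 33.7, 33.1, 42.4, 41.3 and 42.3 in HG (log2 fold change 0.42, SE 0.0788, adjusted p = 0.00137). Gstm4, at the far end of the row, was not called, at 9.54 to 10.6 FPKM in CON and 9.54 to 10.8 in HG (adjusted p = 0.847, log2 fold change -0.01). Gstm1 over Gstm5 was 1.15 ± 0.0751 in CON and 0.581 ± 0.0607 in HG. Alpha- and mu-class genes are similar in sequence, and how reads shared by several of them were counted is not given in the sources used here, which leaves the split between relatives uncertain.

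**Figure D4:**
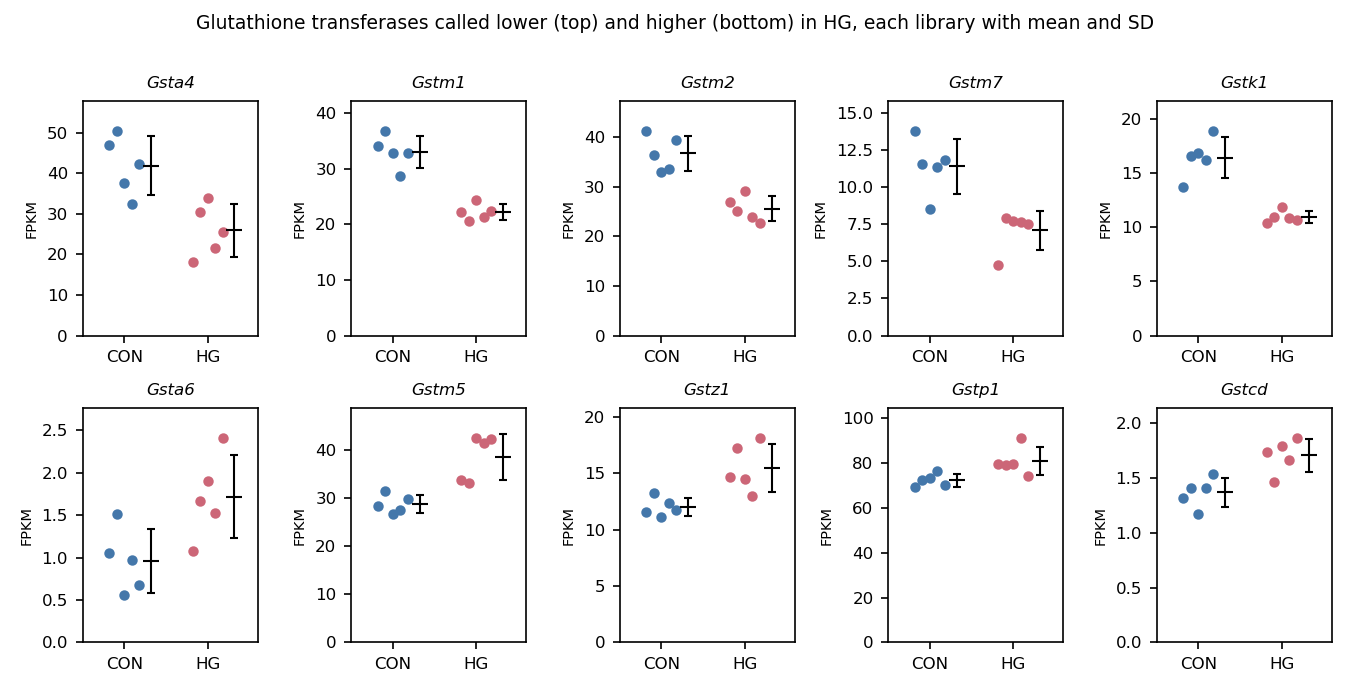
FPKM of the 10 called glutathione transferase genes in each CON and HG library, with mean and SD, the 5 lower in HG in the top row and the 5 higher in the bottom row. Gstm1, Gstm2, Gstm7, Gstk1 and Gstm5 show no overlap between groups, whereas Gsta4, Gsta6, Gstz1, Gstp1 and Gstcd do.

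Liver is rich in these enzymes, and hepatocyte markers moved with the transferases that fell, since their sums were higher in every CON library than in every HG library. Without CON replicate 3, the library with the highest sum, the log2 fold changes of Gsta4, Gstm1, Gstm2, Gstm7 and Gstk1 were between -0.78 and -0.56, each still called, while the hepatocyte sums of the other CON libraries (3.15 to 8.46 FPKM) remained above those of HG. The part of liver RNA in these decreases was not tested. Of the remaining classes, zeta-class Gstz1 (681913), also an enzyme of tyrosine breakdown, ranged from 11.1 to 13.3 FPKM in CON and 12.98 to 18.1 in HG (adjusted p = 0.00589, log2 fold change 0.36). Pi-class Gstp1 (24426) ranged from 69.3 to 76.4 FPKM in CON and 74.1 to 90.9 in HG (adjusted p = 0.0290, log2 fold change 0.15), and was not called with median-of-ratios factors (adjusted p = 0.413). After quantile normalization it was just called (adjusted p = 0.0498). Gstcd (adjusted p = 0.0296, log2 fold change 0.30), named for a transferase domain, lost its call in 8 of 21 alternatives. The 3 theta-class and 2 omega-class genes were not called, with log2 fold changes between -0.36 (Gstt3) and -0.06 (Gstt1). Gstt2 was called lower with median-of-ratios factors (adjusted p = 0.0214) and after quantile normalization (adjusted p = 0.0222).

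Of NRF2, its inhibitor KEAP1, the quinone reductases and the heme oxygenases, only Hmox1 was called. Nfe2l2 (83619) was at 13.6, 11.6, 11.5, 10.96 and 10.03 FPKM in CON and 10.3, 12.1, 11.2, 11.4 and 10.7 in HG, with the HG values inside the CON range (log2 fold change -0.05, SE 0.0753, adjusted p = 0.655). Keap1 (117519) was at 12.96, 12.4, 13.3, 14.2 and 12.7 FPKM in CON and 12.1, 12.9, 12.6, 12.6 and 12.5 in HG (log2 fold change -0.06, SE 0.0449, adjusted p = 0.279), and was called lower only under median-of-ratios (adjusted p = 0.0214) and quantile scaling (adjusted p = 0.0186). Nqo1 (24314), the quinone reductase often used as a readout of NRF2, was at 4.44, 4.74, 4.67, 3.66 and 5.28 FPKM in CON and 3.84, 4.74, 3.88, 4.47 and 3.87 in HG. It overlapped, on 94 to 136 reads in a library (log2 fold change -0.12, SE 0.0983, adjusted p = 0.344). Its relative Nqo2 had a log2 fold change of -0.13 and was not called either. Hmox1 (24451), the inducible heme oxygenase that degrades heme and is high in macrophages, was at 10.03, 11.6, 9.61, 7.71 and 9.96 FPKM in CON and 6.14, 7.92, 6.85, 8.27 and 6.40 in HG. CON4 lay within the HG range, and the other CON libraries above it (log2 fold change -0.45, SE 0.109, adjusted p = 0.00602). Of 8 macrophage markers, 3 were higher and 1 lower, and their part in the Hmox1 result was not tested. The constitutive Hmox2 was not called (0.08).

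Promoters were read to see which members share a feature that the rule did not use. NRF2 binds the antioxidant response element, whose core TGACNNNGC was searched on both strands in the 250 bases before the transcription start (RefSeq, GRCr8). This core contains the AP-1 site TGACTCA where its variable bases complete it. Of the 53 members, 46 matched a promoter by gene identifier, and 10 of these (21.7%) held the core, against 11.02% of 27457 genes with a promoter and 13.04% of those among the tested genes. Gpx8, Gsr, Gstt1, Gstt2, Hmox1, Prdx6 and Sod3 had no matched promoter and were not searched. Among members searched, grouped by the main fit, the core was present in 6 of 13 called higher, 2 of 11 called lower and 2 of 22 not called. This grouping depends on scaling. Of the genes with the core, Gstcd, Gstp1 and Prdx1 lost their calls with median-of-ratios factors, and Gclm was called lower. After quantile normalization Gstcd was not called and Gclm was called lower, while Gstp1 and Prdx1 kept their calls. The same core followed by an A stood in Gclm, Gstp1, Gstz1 and Txnrd1, that is 3 of 13 members called higher, none of 11 called lower and 1 of 22 not called, against 2.63% of all genes. A match of letters is not evidence of binding. The windows below show 3 members that rose, 1 that was not called and 2 that fell, each 5′ to 3′ along the gene with the core, or its reverse complement, in capitals.
Gstp1: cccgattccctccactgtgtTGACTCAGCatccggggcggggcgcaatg
Txnrd1: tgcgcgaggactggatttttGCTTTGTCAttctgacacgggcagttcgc
Prdx1: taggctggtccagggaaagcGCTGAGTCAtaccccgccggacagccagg
Gclm: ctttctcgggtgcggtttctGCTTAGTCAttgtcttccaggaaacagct
Sod2: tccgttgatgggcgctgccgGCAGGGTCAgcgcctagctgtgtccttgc
Gstm7: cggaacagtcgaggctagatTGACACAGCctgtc
The windows lie upstream of their genes at chr1:210769738-210769786 on the minus strand for Gstp1, chr7:22755954-22756002 minus for Txnrd1, chr5:135383751-135383799 plus for Prdx1, chr2:213031943-213031991 plus for Gclm, chr1:50050175-50050223 minus for Sod2 and chr2:198260320-198260353 minus for Gstm7. The core begins 61 bases before the start in Gstp1, 78 in Txnrd1, 135 in Prdx1, 172 in Gclm, 35 in Sod2 and 14 in Gstm7. So genes with the core in this window include both Txnrd1, which rose without overlap, and Sod2, which fell without overlap. Gclm, which was not called in the main fit, also holds it, as do Gstp1 and Prdx1, whose calls depended on scaling.

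The other genes of these pathways were read from lists of symbols, whose counts stand against 28.4% higher, 11.8% lower and a median log2 fold change of 0.09 over all genes tested. All these calls are from the main fit and are not given for other scalings. With median-of-ratios factors 15.7% of all genes were called higher and 17.5% lower. Members with small rises, such as Gclc (0.24), Gsr (0.22) and Prdx1 (0.20), lost their calls on that scale, so small rises here are uncertain. Among partners and further known targets of NRF2, 7 of 17 tested genes were higher and none lower, with a median log2 fold change of 0.15. These included Mafg (64188), a small partner of NRF2 (7.21 ± 0.459 to 8.50 ± 0.465 FPKM; log2 fold change 0.24, adjusted p = 0.00772), Aifm2 (361843), which guards membranes against lipid peroxidation (0.26), and Ugdh (83472), which makes UDP-glucuronate (0.18). In NADPH supply 3 of 8 genes were higher and 2 lower. Transketolase, Tkt (64524), an enzyme of the pentose phosphate pathway, went from 115 ± 4.61 to 147 ± 7.90 FPKM (adjusted p = 7.65e-05, log2 fold change 0.35). Nnt (310378), the mitochondrial transhydrogenase that supplies NADPH in the matrix, fell from 224 ± 10.5 to 178 ± 9.41 FPKM (adjusted p = 0.000123, log2 fold change -0.33).

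Glutathione synthesis, breakdown and transport beyond the members gave 5 higher and 3 lower of 13 tested genes. Chac1 (362196), which degrades glutathione, was higher at a low level (0.474 ± 0.198 to 1.13 ± 0.525 FPKM, log2 fold change 1.09, adjusted p = 0.0135). Ggt7 was higher as well (0.84), and Ggt5, a gamma-glutamyl enzyme on the cell surface, was lower (-0.57). Of 5 microsomal and prostaglandin glutathione transferases, only Mgst3 (289197), a membrane enzyme, was called, falling from 197 ± 14.5 to 111 ± 6.55 FPKM (adjusted p = 1.09e-06, log2 fold change -0.82). Txnip (117514), which binds and inhibits thioredoxin and is induced by glucose, rose from 83.5 ± 2.77 to 113 ± 10.7 FPKM (adjusted p = 0.000193, log2 fold change 0.43). Besides it only Txnl1 was called among 9 thioredoxin-related genes (0.11).

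In the synthesis of selenoproteins, to which Gpx1, Gpx3, Gpx4 and the thioredoxin reductases belong as products, 3 of 7 genes were higher and none lower, namely Sephs2 (0.27), Sepsecs (0.23) and Sephs1 (0.20). Of 11 other selenoproteins, Selenoh (0.30) and Selenow (0.16) were higher and the selenium carrier Selenop (29360) was lower (41.8 ± 2.70 to 31.9 ± 5.35 FPKM, log2 fold change -0.40). Metallothioneins, small metal-binding proteins, had 1 of 3 genes called, Mt1 (24567), which fell from 41.3 ± 3.98 to 25.4 ± 5.70 FPKM (adjusted p = 0.000924, log2 fold change -0.72). Among sources of reactive oxygen species, 3 of 9 tested genes were higher and 2 lower. The largest changes among the called genes of this list were at low levels, in Ncf1 (-0.63), Maob (-0.50) and Cybb (0.50).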

How the data were processed

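Stranded mRNA libraries of 10 fetal heart samples were sequenced. The authors deposited FPKM, that is reads per gene divided by gene length and library size, as 1 table with 1 column per library (0 sample columns unused). Per the labels, the processing notes name fastp, HISAT2, HTSeq, R 3.2.0 and the build mRatBN7.2. The annotation is not given in the sources used here. Reads per gene were recovered from the steps between FPKM values. Scaled values were within 0.02 reads of a whole number in 100% of genes. Counting error limits genes with few reads.

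The groups were compared on log2(FPKM + 0.1) with limma 3.58.1 in R 4.3.3, for genes whose mean reached 0.1 FPKM. The fit had an expression trend and no further term, tests were two-sided (5 CON against 5 HG), and p-values were adjusted over all 14542 genes. The study's DESeq was not run. Voom on the recovered reads served as the count-based alternative. Summaries were made in Python 3.11.15 (pandas 2.3.3) and plots in matplotlib 3.10.9. The model was tested on simulated data of 14542 genes: of 97 genes changed by 0.5 on the log2 scale 69 were called, of 103 changed by 1 it called 90, and 5 of 14342 unchanged genes were called. Every simulated gene had the same relative spread beyond counting error, few genes were changed, and the scaling did not differ between groups. The simulation therefore cannot show how the fit behaves under the scaling differences seen in these data.

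Members and lists were chosen with earlier results of these data known. Named with every library were called members whose log2 fold change was 0.4 or more in size, and 15 members fixed by name. Other members are given by range, and of each pathway list up to 3 called genes with the largest fold change. Alternatives changed the pseudocount (1 or 0.01), the filter (none, or 1 FPKM), the scaling (median-of-ratios, quantile, or without hemoglobin genes) or the model (no trend, library weights, a block for the replicate number, voom on recovered reads), or left out each library in turn. Protein sequences were not used here. 1 gene of a pathway list that the rule would name is not reported here.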

Additional observations from a re-analysis of the deposited data

Results flagged for a closer look

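In groups of 5 libraries, a library was marked when its gap to the nearest other one took up an unusual share of the group's range (Dixon's criterion at 95%). Of 106 groups of member genes, 4 had such a library, where chance marks about 5% of groups. Gstm7 in HG1 was at 4.76 FPKM, against 7.49 to 7.92 in the other HG libraries. Txn2 in CON5 was at 132 FPKM, against 156 to 164 in the other CON libraries. Gsr in CON2 was at 18.4 FPKM, against 16.5 to 17.0, and Gsta1 in CON1 was at 0.620 FPKM, against 0.189 to 0.285, which corresponds to 13 reads. Gstm7 stayed called without HG replicate 1 and Gsr without CON replicate 2.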

How the results depend on the processing

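Median-of-ratios factors moved the balance of the calls, from 16 members higher and 13 lower to 10 higher and 20 lower, and the median log2 fold change of the members from -0.07 to -0.15, while the median over all genes went from 0.09 to 0.01. In each of the other alternatives the 2 counts stayed within 1.5 times their values. Over the libraries left out in turn, 14 to 16 members were called higher and 11 to 13 lower, and the median ranged from -0.08 to -0.04. Of the 29 calls, 20 held in all 21 alternatives, 9 were lost in at least 1, and none changed direction. A further 7 members were called in at least 1 alternative. Among genes not called, Cat had a log2 fold change of -0.042 with median-of-ratios factors, and Nfe2l2 ranged from -0.095 to 0.014 over the libraries left out, above 0 only without CON replicate 1. Voom called the same 29 members. With the replicate number as a block, 15 members were higher and 13 lower, Gstcd being lost. The numbers share no origin in the labels, and deviations of same-numbered libraries correlated between -0.13 and 0.11, with no library closest to its own number. Genes with few reads limit the precision, as for Gstm6 (0 to 7 reads) and Gsta1 (1 to 13).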
